A study of Mus musculus with 4 samples.

Results

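Border-associated macrophages are the resident macrophages of the brain's edges: the meninges, the spaces around vessels and the choroid plexus. They were chosen by their transcripts from single cells of the mouse brain that had been selected for CD11b, a surface protein of myeloid cells. A cell was kept when it had at least 500 genes, at least 1000 UMIs (unique molecular identifiers, each counting 1 captured transcript) and at most 10% mitochondrial UMIs. It was a member when at least 3 of the 5 genes Mrc1, Cbr2, F13a1, Cd163 and Lyve1 were detected and no UMI of Sall1 was found. Sall1 encodes a transcription factor of microglia, the macrophages of the brain tissue itself. The rule found 217 members among 8018 analysed cells (2.71%), which came from 16040 deposited barcodes. Members were further split at 150 UMIs of H2-Aa, H2-Ab1, H2-Eb1 and Cd74 per 10000 UMIs of the cell, and 17 of 217 lay above. Because these values chose the cells, the 5 markers, Sall1 and the 4 MHC class II genes are given below as a description only.

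The 4 libraries were a wild-type sham library, a wild-type library at day 6 after cerebrovascular injury (CVI), and the same pair from mice labelled Il6 knockout. The genotypes are given as IL6 WT (+/+) and IL6 KO (-/-), and all mice were 8 to 12 weeks old. CVI was made by pulsed ultrasound through a thinned skull after intravenous microspheres. A mild and a severe form are described, and the form used for these mice is not named. Controls are labelled as 6 days after sham surgery in one place and as uninjured in another. Tissue was taken with a 4 mm punch, and CD11b-positive cells were enriched on beads, so shares of cells depend on that step and on how well each cell type is released. Each group is 1 library from 1 mouse, the 4 mice being different animals. Injury, genotype label, mouse and library therefore cannot be told apart, no p-value can be given, and each difference describes these libraries.

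Border-associated macrophages take up material from the cerebrospinal and interstitial fluid with scavenger receptors and C-type lectins, receptors that bind sugars on proteins and microbes. The mannose receptor gene Mrc1, the haptoglobin-haemoglobin receptor gene Cd163 and the hyaluronan receptor gene Lyve1 are used to tell them from microglia. A Lyve1-positive form with little MHC class II and an MHC class II high form with the ability to present antigen to T cells are both known from healthy meninges.

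Depth was similar across the groups. The median member had 7817 UMIs for wild-type sham, 6035 for injured wild-type, 6627 for knockout-labelled sham and 7218 for injured knockout-labelled. Between 50 and 61 members per library held 365658 to 484376 UMIs together, so that 1 UMI was worth 2.06 to 2.73 CPM (UMIs per 1000000 UMIs of all members of the library). Pairs of libraries shared at most 23 barcodes of analysed cells, the 23 being between both sham libraries, and no member's barcode was shared. Il6 itself had 0 UMIs in members of either wild-type library, 8 in the knockout-labelled sham library and 5 in the injured knockout-labelled library. The libraries read the 3′ end of transcripts, and which exon was targeted is not stated here, so these UMIs neither check nor contradict the genotype, and those libraries are called knockout-labelled. Intervals below are exact 95% intervals for counting error only, and they are too narrow for a gene with many UMIs in 1 cell.

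Members made up a smaller share of the analysed cells in both injured libraries, although their number hardly differed. The wild-type sham library held 61 of 992 (6.15%, 4.74 to 7.83), and the injured wild-type library 54 of 2996 (1.80%, 1.36 to 2.35). The knockout-labelled sham library held 52 of 1392 (3.74%, 2.80 to 4.87), and the injured knockout-labelled library 50 of 2638 (1.90%, 1.41 to 2.49). The intervals of sham and injured libraries did not overlap in either pair, and those of the injured libraries overlapped each other. A share is relative to all other CD11b-positive cells caught, and fewer members cannot be told apart from more cells of other kinds. All 5 markers were detected in 13 of 61, 11 of 54, 23 of 52 and 18 of 50 members, in the order wild-type sham, wild-type injured, knockout-labelled sham, knockout-labelled injured.

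**Figure D1:**
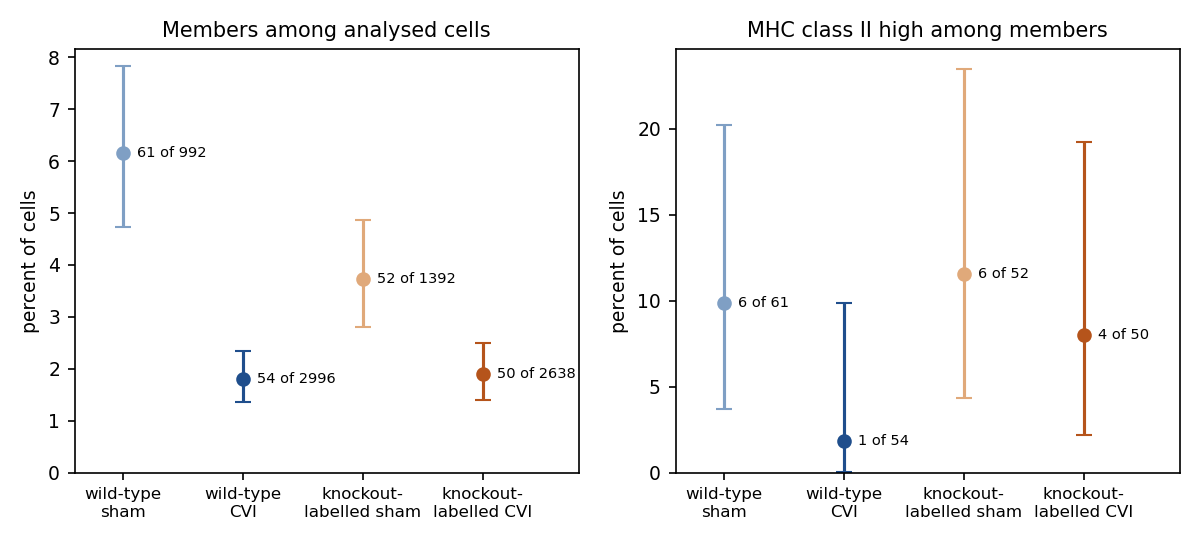
Share of members among analysed cells (left) and share of MHC class II high cells among members (right), in percent, for each of the 4 libraries, with exact 95% Clopper-Pearson intervals for counting error. The left panel shows 50 to 61 members in every library over 992 to 2996 analysed cells; the intervals of the right panel all overlap.

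Set against microglia, genes outside the rule followed the label. Pf4, the platelet factor 4 chemokine gene that border macrophages are known for, stood at 2727 CPM in wild-type sham members, 2262 in injured wild-type, 4384 in knockout-labelled sham and 2592 in injured knockout-labelled members. It was at 18.0 CPM in 4440 microglia of the same libraries. These were taken as cells with at least 1 Sall1 UMI, at least 2 of Tmem119, P2ry12 and Siglech and at most 1 rule marker. Every library of members was thus far above microglia, and Pf4 was detected in 213 of 217 members. Ms4a7, a membrane protein gene of non-microglial brain macrophages, stood at 913, 1177, 1023 and 1019 CPM in the same order, against 50.5 in microglia. It did not set members apart from cells outside the rule. Without Sall1, the 361 cells with 1 marker were at 890 CPM of Ms4a7 and the 103 with 2 markers at 929. The endocytic adaptor Dab2 was at 1613 CPM over all members and 34.7 in microglia, the folate receptor gene Folr2 at 438 and 30.6, and the chemokine gene Ccl7 at 3926 and 11.2.

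Defining genes of microglia were low but not absent. P2ry12, the ADP receptor with which microglia sense injury, was at 200, 118, 183 and 198 CPM in members against 1478 in microglia, and Tmem119 at 26.4 over all members against 669. The microglia were chosen partly by P2ry12 and Tmem119, and members by absence of Sall1, so this contrast is a description only. Among members, 55 of 217 had at least 2 of P2ry12, Tmem119 and Siglech (14, 13, 13 and 15 per library), and their part in the results was not tested beyond leaving them out. Fcrls did not separate the cells, at 1380 CPM in members and 1767 in microglia. Of 8 lymphocyte markers 7 had no UMI in any member, as had 4 of 5 red cell markers, and 7 neutrophil markers summed to 38.3 to 63.6 CPM per library. Choroid plexus markers, mostly the transthyretin gene Ttr, summed to 22.7, 2.27, 137 and 147 CPM.

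**Figure D2:**
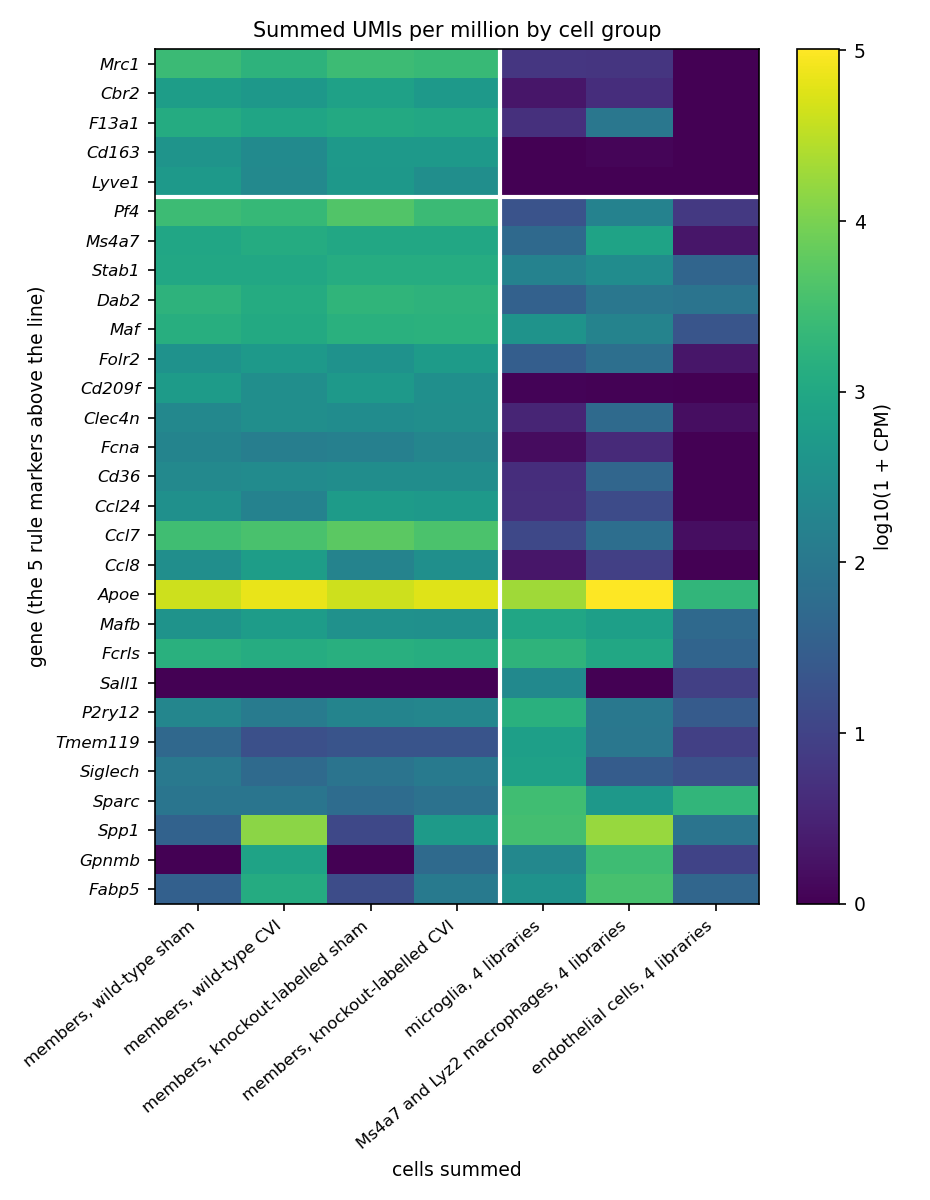
Summed UMIs as log10(1 + CPM) for members of each library and for 3 other cell groups of the 4 libraries: microglia, macrophages with Ms4a7 and Lyz2 but at most 1 rule marker, and endothelial cells. The genes below the horizontal white line took no part in choosing members except Sall1. Sall1, P2ry12, Tmem119, Siglech and Ms4a7 helped to choose the other groups, and endothelial cells were chosen without any rule marker. Pf4, Dab2 and Ccl7 are highest in the member columns. Spp1, Gpnmb and Fabp5 are high in injured wild-type members and in the Ms4a7 and Lyz2 macrophages.

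The edge of the rule mattered for what was included. Pf4 stood at 1945 CPM in the 78 members with 3 markers, 3117 in the 74 with 4 and 3671 in the 65 with 5. In the 103 cells with 2 markers, just outside the rule, it was 552 CPM. Spp1, which encodes the secreted protein osteopontin, stood at 19220 CPM in cells with 2 markers, 10369 in members with 3, 66.2 in those with 4 and 1082 in those with 5. Single cells held 4949 of the 5523 UMIs at 3 markers and 608 of the 636 at 5, and without the top cell of each class the levels were 1188, 50.5 and 50.3 CPM. Of the 103 cells with 2 markers, 66 came from the injured wild-type library. A further 29 cells had at least 3 markers but also Sall1, and with 1298 CPM of P2ry12 and 921 of Pf4 they carried genes of both kinds.

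MHC class II high members were few. They numbered 6 of 61 in wild-type sham (9.84%, 3.70 to 20.2), 1 of 54 in injured wild-type (1.85%, 0.0469 to 9.89), 6 of 52 in knockout-labelled sham (11.5%, 4.35 to 23.4) and 4 of 50 in injured knockout-labelled members (8.00%, 2.22 to 19.2). All 4 intervals overlapped. Most members had none of these transcripts, but the amounts in the rest were graded. Of 217 members, 147 had no UMI of the 4 genes. The 17 high cells ran from 166 to 766 UMIs per 10000 with a median of 315. Other members held some UMIs but lay below the threshold. Among them were wild-type sham members at 58.6, 111 and 133 and knockout-labelled sham members at 39.1, 81.4 and 121. The highest member below the threshold was at 10.1 in the injured wild-type and 31.6 in the injured knockout-labelled library. No member lay between 133 and 166. H2-Aa lies at chr17:34282744-34287823, H2-Ab1 at chr17:34257689-34269419 and H2-Eb1 at chr17:34305867-34316674 (mm10), so these 3 MHC class II genes sit side by side.

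**Figure D3:**
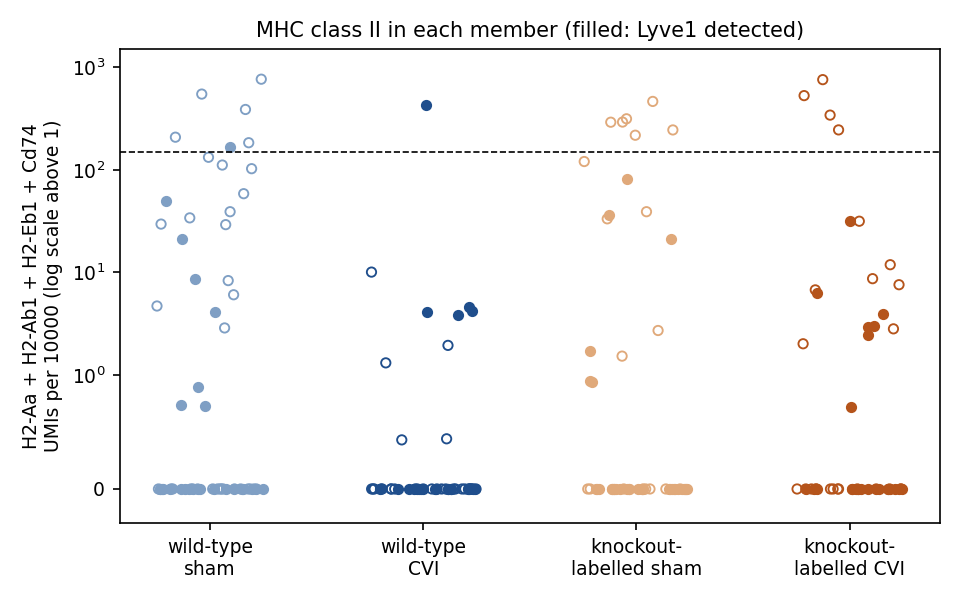
UMIs of H2-Aa, H2-Ab1, H2-Eb1 and Cd74 per 10000 UMIs of the cell (vertical axis, logarithmic above 1), 1 point per member, by library; filled points have Lyve1 detected and the dashed line is the threshold of 150. Only 2 of the 17 points above the line are filled, and most members lie at 0.

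Genes that took no part in the split also differed between its sides. Lyve1, although a marker of the rule, had 2 UMIs in 2 of the 17 high members and 619 UMIs in 106 of the 200 others. Fcna, the gene of a secreted ficolin lectin, had 0 against 278 UMIs, and the iron exporter gene Slc40a1 3 against 387. These counts are not scaled for the unlike size of the 2 sides. High members held 58883 of 484376 member UMIs in wild-type sham and 4567 of 440262 in injured wild-type. They held 44390 of 365658 in knockout-labelled sham and 22211 of 373890 in injured knockout-labelled. The helper of peptide loading H2-DMa stood at 792 CPM in high and 59.3 in low members, and H2-DMb1 at 723 and 48.9, while the transactivator gene Ciita had 14 UMIs in 7 high and 3 in 2 low members. Ccr2, the chemokine receptor by which monocytes enter tissue, was at 392 against 4.56 CPM, with its 51 UMIs in 6 of the 17 cells, and Cx3cr1 at 1084 against 351. Pf4, at 1622 against 3049, was still well above microglia in high members. None of the 17 had all 5 markers, and 9 had 3.

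Across all 4478 genes tested (at least 50 UMIs over members), 26 were higher in high members in 4 of 4 libraries with a median of at least 2-fold, which is 0.581%, and 558 were lower, which is 12.5%. The injured wild-type library brings only 1 high cell with 4567 UMIs to this, in which most genes are at 0. Of the 25 border-associated macrophage genes outside the rule, 14 were lower and 0 higher, with a median log2 ratio of -1.41 against -0.46 over all genes. Beside H2-DMb1 and H2-DMa, the genes highest in high members were Ms4a4c, Fxyd5, Pmepa1, Dok3, BC028528, Clic4, H2-Q7 and Bcl2a1b. Lowest were the lectin genes Cd209f and Clec4n, Lyve1, the chemokine genes Ccl24 and Ccl8, Fcna, Spp1, Serpinb6a, Slc40a1 and the prostaglandin D synthase gene Ptgds. Of 13 dendritic cell markers, Napsa, Cd209a and Siglech had 3, 1 and 12 UMIs in the 17 cells, and the other 10 had 0. The 5 measured monocyte markers had a median log2 ratio of 1.23, against -0.46 over all genes; Ms4a4c passed 2-fold, and Lyz2 was at 14002 against 9522 CPM. The part of such cells in the result was not tested.

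Injury was compared with sham surgery separately in each genotype label, from summed UMIs and with a log2 ratio that adds 20 CPM to both sides. In the wild-type pair 66 genes were at least 2-fold higher (1.47% of those tested) and 81 lower (1.81%). With median-of-ratios scaling in place of the total count the split was 94 higher and 53 lower, so the share of higher genes among those counted moved from 44.9% to 63.9%, and the median of all genes moved from -0.12 to 0.01. In the knockout-labelled pair 56 were higher (1.25%) and 43 lower (0.96%). The pairs share no library. Of the higher genes, 18 were counted in both, which is 27.3% of the wild-type and 32.1% of the knockout-labelled list, and of the lower genes 8, which is 9.88% and 18.6%. Computed across genes, none of them an independent replicate, the log2 ratios of the pairs had Pearson's r of 0.29 and Spearman's rho of 0.22.

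**Figure D4:**
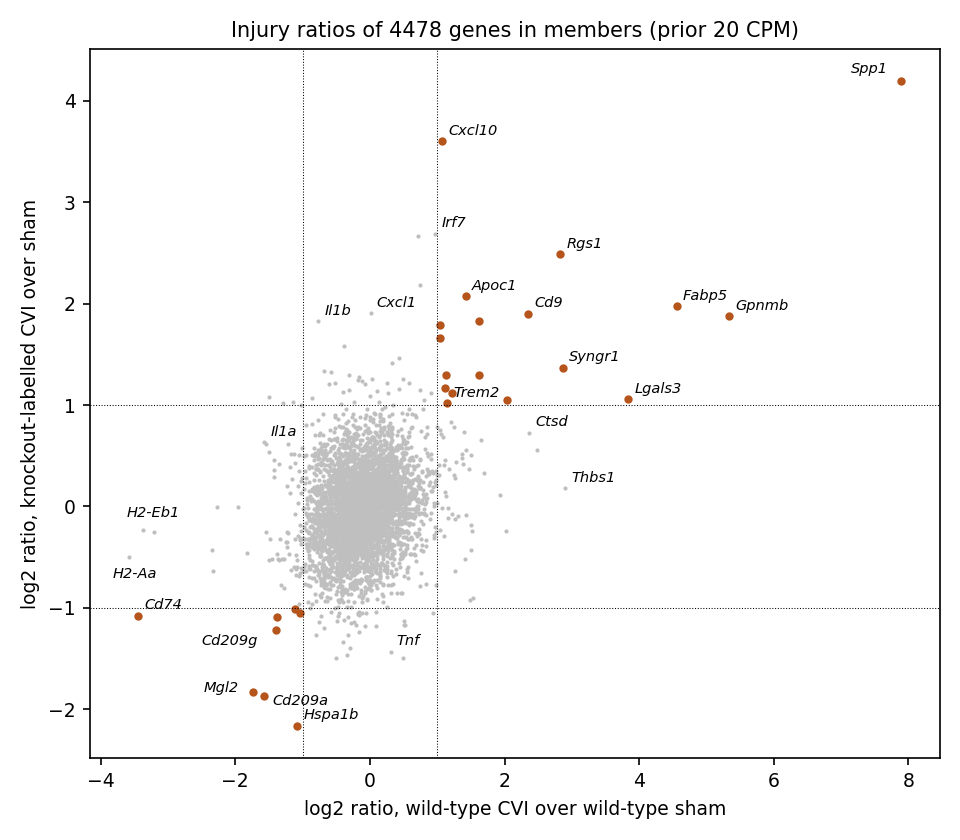
Log2 ratio of injured over sham members for each of 4478 genes, in the wild-type pair (horizontal) and the knockout-labelled pair (vertical), with 20 CPM added to both sides; dotted lines mark 2-fold and coloured points the 18 genes higher and 8 lower in both pairs. Mgl2, Cd209a and Cd209g sit together at the lower left, Spp1 at the far upper right, and Irf7 and Cxcl10 high on the vertical axis.

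The C-type lectin genes Mgl2, Cd209a and Cd209g were at least 2-fold lower after injury in both pairs, while other lectin genes were not. Mgl2, at chr11:70130329-70137550 (mm10), encodes a galactose-binding lectin of macrophages and dendritic cells. It stood at 485 CPM in wild-type sham and 132 in injured wild-type members, and at 717 and 187 in the knockout-labelled libraries. Both sham libraries were above both injured ones, and sham exceeded injury 3.68-fold (2.75 to 5.00) and 3.83-fold (2.93 to 5.06). Single cells held 58 of the 235 UMIs of wild-type sham and 63 of the 262 of knockout-labelled sham members. Without the top cell of each library the levels were 374, 119, 561 and 160 CPM, in the order wild-type sham, wild-type injured, knockout-labelled sham, knockout-labelled injured. Mgl2 was detected in 42 of 61, 22 of 54, 32 of 52 and 19 of 50 members. It was found in none of the endothelial cells that serve here as a gauge of free RNA (25, 75, 47 and 127 cells, median 4854 UMIs against 6631 in members). Those cells were chosen with Cldn5 and at least 3 endothelial markers detected, and without a UMI of any rule marker or of the leukocyte gene Ptprc. Cells holding free RNA of these genes were thereby left out, so the gauge can understate free RNA from macrophages. After thinning each cell to 2000 UMIs the shares of members with Mgl2 were 37.0%, 30.0%, 48.0% and 31.8%. The wild-type log2 ratio of Mgl2, -1.74, missed 2-fold with thinned members (-0.73) and with at least 4 rule markers (-0.92), whereas the knockout-labelled ratio, -1.83, stayed between -1.91 and -1.10 over the alternatives.

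Cd209a and Cd209g, genes of the DC-SIGN lectin family, followed the same order. Cd209a (chr8:3743397-3748984, mm10) had 39, 6, 41 and 6 UMIs in 8, 4, 11 and 2 members, and Cd209g was at 134, 38.6, 145 and 50.8 CPM. Both were thus lower in each injured library than in either sham library. Single cells held 19 of the 39 and 12 of the 41 sham UMIs of Cd209a. Without the top cell of each library Cd209a was at 42.0, 9.20, 80.5 and 5.49 CPM. The log2 ratios were -1.58 and -1.87 for Cd209a and -1.40 and -1.22 for Cd209g. Cd209g missed 2-fold with at least 4 markers (-0.69 and -0.81) and with thinned members (-0.64 and -0.85), and in the wild-type pair also without members carrying Gpnmb (-0.75). Cd209a missed it with at least 2 markers (-0.72 and -0.96). Cd209b had 9, 15, 38 and 9 UMIs in 2, 2, 7 and 3 members, and so was not lower in the wild-type pair. Cd209f, the family member most abundant here, had 557, 291, 479 and 305 CPM and log2 ratios of -0.89 and -0.62, which do not reach 2-fold. The neighbour Clec10a, close in sequence to Mgl2, was at 527, 395, 520 and 305 CPM. Reads of such similar genes may be assigned to the wrong copy, so the division within each family is uncertain. Lyve1, as a rule marker, is a description: 489, 227, 476 and 294 CPM.

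Insig1, Lbr, Hspa1b and Cd74, named after their values were seen, were also lower in both pairs. Insig1 encodes a sterol sensor of the endoplasmic reticulum. It had 23 UMIs in wild-type sham, 5 in injured wild-type, 37 in knockout-labelled sham and 15 in injured knockout-labelled members, and so rests on few counts (4.18-fold, 1.55 to 14.1, in the wild-type pair). Hspa1b, a heat shock gene that also responds to tissue dissociation, was at 114, 43.2, 213 and 32.1 CPM. Of 23 measured dissociation-responsive genes 2 were lower and 0 higher in each pair, with medians of -0.30 and -0.18. Among all genes tested, 1.81% and 0.96% were lower and 1.47% and 1.25% higher, with medians of -0.12 and -0.02. By sign, 20 and 16 of the 23 lay below 0, against 2752 and 2340 of all 4478 genes. Fos, at 3217, 2648, 4028 and 4531 CPM, was not among those that passed 2-fold.

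Genes of lesion and disease-associated macrophages were higher after injury, mainly in the wild-type pair. Such genes handle lipids and lysosomes and mark phagocytes at damaged sites. Of 17 measured members of the list, 11 were higher and 0 lower in the wild-type pair, with a median log2 ratio of 1.42 against -0.12 over all genes. In the knockout-labelled pair 7 were higher and 0 lower, with a median of 0.55 against -0.02. Among all genes tested, 1.47% were higher and 1.81% lower in the wild-type pair, and 1.25% and 0.96% in the knockout-labelled pair. Spp1 (chr5:104435118-104441050, mm10) had 18 UMIs in wild-type sham, 5969 in injured wild-type, 4 in knockout-labelled sham and 204 in injured knockout-labelled members. A single cell held 4949 of the 5969, and another 162 of the 204.

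Gpnmb, the gene of a glycoprotein of lipid-laden macrophages (chr6:49036546-49070929, mm10), had 0 UMIs in both sham libraries, 348 in 14 injured wild-type members and 20 in 2 injured knockout-labelled members. The 0 of 61 and 0 of 52 allow shares of members with a UMI of up to 4.92% and 5.77%. Endothelial cells had a Gpnmb UMI in 11 of 75 cells (14.7%) of the injured wild-type and 2 of 127 (1.57%) of the injured knockout-labelled library, against 25.9% and 4.00% of members, and in 0 sham cells. Against a floor of 3 counts in the sham library, the injured wild-type level was 128-fold higher and the injured knockout-labelled level 6.52-fold higher. The lower ends of the exact intervals for counting error, set without this floor, were 103-fold and 4.83-fold. In the latter 19 of the 20 UMIs were in 1 cell, and without the top cell the log2 ratio was 0.19. Fabp5, which carries fatty acids, had 16, 541, 5 and 42 UMIs. The galectin gene Lgals3 had 7, 208, 7 and 23. Both sham libraries were low for each of these genes and the injured wild-type library was highest. The counts leaned on the same cells. In the injured wild-type library, the cell with 49398 UMIs held 4949 Spp1, 151 Gpnmb, 258 Fabp5 and 99 Lgals3 UMIs. In the injured knockout-labelled library, the cell with 21762 UMIs held 162 Spp1, 19 Gpnmb and 33 Fabp5 UMIs. Without the top cell of each library, Fabp5 was at 29.6, 724, 11.3 and 25.6 CPM. Lgals3 was then at 8.45, 279, 0 and 38.1 CPM. Among members with at least 4 rule markers, the knockout-labelled log2 ratios of Fabp5 and Lgals3 turned to -0.02 and -0.42.

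Trem2, the lipid-sensing receptor gene of microglia and macrophages, was detected in most members of every library. It was at 621, 1395, 446 and 923 CPM in 44, 50, 45 and 45 members, with injury ratios of 2.24 (1.95 to 2.58) and 2.07 (1.71 to 2.51). Endothelial cells held 95.7, 158, 9.26 and 121 CPM of it. In the injured wild-type library the 14 members with a Gpnmb UMI were at 2179 CPM and the 40 others at 722, close to the 621 of sham members. The tetraspanin gene Cd9 was at 72.3, 452, 21.9 and 136 CPM, detected in 7 of 61, 29 of 54, 5 of 52 and 26 of 50 members. The share of endothelial cells with Cd9 was higher in every library (9 of 25, 50 of 75, 26 of 47 and 71 of 127). Whether endothelial cells make Cd9 themselves was not tested, so they give no gauge of free RNA for this gene. The shares of members with Cd9 are therefore not read as expression. The lysosomal protease gene Ctsd, at 1974, 10248, 1862 and 3097 CPM, passed 2-fold only in the wild-type pair. Apoe, the lipoprotein gene that is among the most abundant in these cells, was at 42591, 70088, 42843 and 56744 CPM and stayed within 2-fold (log2 0.72 and 0.41).

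**Figure D5:**
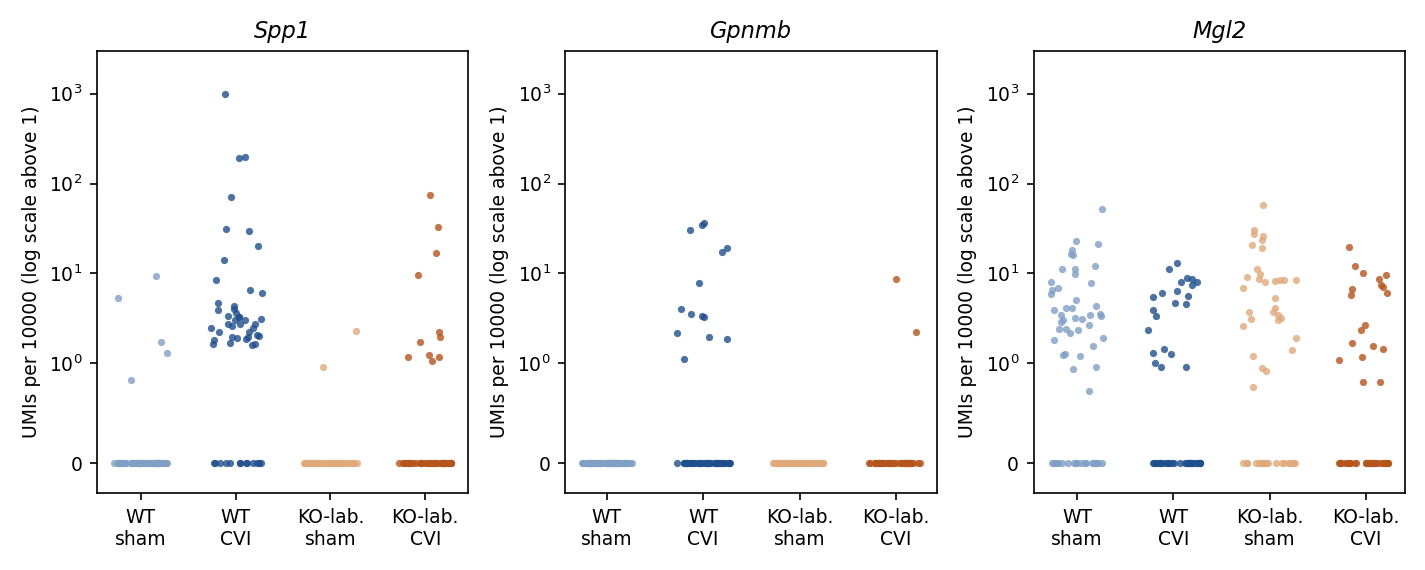
UMIs of Spp1, Gpnmb and Mgl2 per 10000 UMIs of the cell (vertical axis, logarithmic above 1), 1 point per member, in the wild-type (WT) and knockout-labelled (KO-lab.) libraries after sham surgery or CVI. Spp1 spans from 0 to over 100 per 10000 among injured wild-type members, Gpnmb appears only in the injured libraries (14 and 2 cells), and Mgl2 is spread over many cells in all 4.

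Most of this difference sat in a few of the members with a Gpnmb UMI, a grouping made after the values were seen and left without a test. Of the 14 in the injured wild-type library, 12 had exactly 3 rule markers. They stood at 29071 CPM of Spp1 against 245 in the 40 other members of that library, 2592 against 59.1 of Fabp5 and 18630 against 3056 of Ctsd. A single cell held 4949 of their Spp1 UMIs, and the 13 others were at 6249 CPM. The 14 were not alike: 7 had 1 to 3 Gpnmb UMIs and 1 to 3 Spp1 UMIs each (313 CPM of Spp1), and 7 had 6 to 151 Gpnmb UMIs and 28 to 4949 Spp1 UMIs (36462 CPM). Pf4 was at 1395 CPM in the former and 903 in the latter, and Mrc1 at 1564 and 216. As a whole, their levels of border macrophage genes were lower: Pf4 1003 against 3343 CPM, Mrc1 492 against 2765 and Cd209f 0 against 540. Ms4a7 was similar, 1062 against 1275. Among macrophages of the injured wild-type library with Ms4a7 and Lyz2 but at most 1 rule marker (612 cells), Spp1 was at 18967 CPM.

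Without the members with a Gpnmb UMI (an alternative added after the data were seen), 15 of the 66 genes higher in the wild-type pair and 44 of the 81 lower ones still passed 2-fold. In the knockout-labelled pair 40 of 56 and 33 of 43 did. For single genes of the wild-type pair the log2 ratio went from 7.89 to 2.21 for Spp1, from 4.56 to 0.58 for Fabp5, from 2.36 to 0.71 for Cd9 and from 1.14 to 0.21 for Trem2. Mgl2 was at -1.18 and -1.73 in the wild-type and knockout-labelled pairs. The remaining Spp1 of the injured wild-type members (245 CPM) was near the 242 CPM of endothelial cells in that library, where 50 of 75 cells had a Spp1 UMI, against 41 of 54 members. Thinned to 2000 UMIs, these shares were 31.4% and 44.0%. In the injured knockout-labelled library the corresponding levels were 118 CPM in members without Gpnmb and 50.2 in endothelial cells.

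Interferon-response genes were higher after injury in the knockout-labelled pair. Interferons are secreted signals that switch on antiviral genes. Of 23 measured list members, 9 were higher after injury and 0 lower with the knockout label (median log2 0.80, all genes -0.02). In the wild-type pair 3 were higher and 0 lower (median 0.26, all genes -0.12). Among all genes tested, 1.25% were higher and 0.96% lower with the knockout label, and 1.47% and 1.81% in the wild-type pair. Between sham libraries, 7 of the 23 were above and 16 below 0 in knockout-labelled members (median -0.11, all genes -0.02). Irf7, which encodes an amplifier of the response (chr7:141262706-141266481, mm10), stood at 51.6 CPM in wild-type sham, 120 in injured wild-type, 19.1 in knockout-labelled sham and 233 in injured knockout-labelled members. Both injured libraries were above both sham libraries, and the knockout-labelled ratio was 12.2 (5.66 to 31.1) with 87 UMIs spread over 26 of 50 cells against 7 UMIs in 4 of 52. Over all alternatives run, its log2 ratio lay between 2.03 and 3.30.

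Irf7 was not particular to members: endothelial cells held 85.7, 181, 79.6 and 265 CPM, with UMIs in 57.5% of cells of the injured knockout-labelled library against 52.0% of members. Free RNA as its source in members was not tested. Rtp4, another interferon-induced gene, was at 45.4, 123, 93.0 and 257 CPM, with ratios of 2.70 (1.62 to 4.66) and 2.76 (1.85 to 4.21). Ifit2, which binds viral RNA, had 3, 15, 4 and 29 UMIs. Rtp4 and Ifit2 passed 2-fold in both pairs, as did Cxcl10. Ifit1, Ifit3, Isg15, Ifi27l2a, Irf1 and Irf7 passed in the knockout-labelled pair alone, although Irf7 at 0.97 missed narrowly in the wild type. With at least 1000 genes and at most 5% mitochondrial UMIs per cell, Ifit1 turned to -0.33. Cxcl10 rests on few cells: of its 96 UMIs in the injured knockout-labelled library 88 were in 1 cell, against 1 UMI in the sham library. That cell, with 21762 UMIs, also held most Spp1 UMIs of its library.

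Chemokine and cytokine genes had no common direction. Border macrophages make chemokines that draw leukocytes to the meninges. The monocyte attractant genes Ccl2 (2641, 3512, 5185 and 2854 CPM) and Ccl7 (2921, 3761, 5538 and 3846 CPM) were highest in knockout-labelled sham members and within 2-fold in each injury comparison. Of 14 measured chemokine genes, 3 were higher in the wild-type pair (Ccl4, Ccl8 and Cxcl10) and 3 in the knockout-labelled pair (Cxcl1, Cxcl2 and Cxcl10), with 0 lower in either. Over all genes 1.47% and 1.25% were higher. By sign, 7 lay above and 7 below 0 in the wild-type pair, and 8 and 6 in the knockout-labelled pair. The list medians were -0.13 and 0.28, against -0.12 and -0.02 over all genes. Ccl4 was at 663, 1778, 1124 and 1880 CPM in 19 of 61, 40 of 54, 21 of 52 and 28 of 50 members.

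Among 12 measured cytokine and inflammatory genes, 0 were higher and 3 lower in the wild-type pair (Il1a, Nlrp3 and Nfkbiz). In the knockout-labelled pair 4 were higher (Il1b, Osm, Ptgs2 and Tnfaip3) and 2 lower (Tnf and Il10). Over all genes 1.47% were higher and 1.81% lower in the wild-type pair, and 1.25% and 0.96% in the knockout-labelled pair. The list medians were -0.38 and 0.34, against -0.12 and -0.02 over all genes. Tnf (chr17:35199381-35202007, mm10), the gene of tumour necrosis factor, was at 363, 454, 684 and 241 CPM in 30, 26, 28 and 23 members. It was highest in the knockout-labelled sham library, 2.84-fold (2.22 to 3.66) above the injured one, and its log2 ratio of -1.43 lay between -1.59 and -1.15 over the alternatives. Il1b, at 485, 277, 145 and 564 CPM, had 53.3% to 81.1% of its UMIs in 1 cell of each library. Il10 had 28 of 29 UMIs of the knockout-labelled sham library in 1 cell, and without the top cell of each library its log2 ratio turned from -1.46 to 0.31. The co-stimulatory gene Cd83 was at 601, 554, 284 and 698 CPM, above 2-fold in the knockout-labelled pair.

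Few genes of several programmes that border macrophages are known for passed 2-fold after injury, and few did among all genes tested. The shares of all genes were 1.47% higher and 1.81% lower in the wild-type pair, and 1.25% and 0.96% in the knockout-labelled pair. Counts of 0 or 1 in lists this short therefore do not show that a programme was unchanged. Members were chosen by the rule markers, so any cells that had lost most of these markers would be left out. Of the 25 border macrophage genes outside the rule, only Cd209g passed 2-fold in either pair, as lower in both, with list medians of -0.16 and -0.02 close to those of all genes. Of 19 measured scavenger and endocytic receptor genes 0 passed in any of the 4 comparisons; Stab1, which clears modified lipoproteins, was at 1003, 1024, 1247 and 1233 CPM. The same held for 13 MHC class I genes. Complement had 0 of 10 in both injury comparisons, and the C1q chain gene C1qa was at 6278, 7325, 5918 and 6951 CPM. Of 13 iron and haem genes, 1 was lower in the wild-type pair, the transferrin receptor gene Tfrc with 34, 8, 7 and 4 UMIs, and 0 passed in the knockout-labelled pair. Hmox1, the haem-degrading enzyme gene, was at 200, 250, 276 and 297 CPM.

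The MHC class II genes of the split were lowest in injured wild-type members, the library with 1 high cell: Cd74 had 1416, 110, 797 and 382 UMIs. Proliferation genes were concentrated in the wild-type sham library, where Mki67 had 53 UMIs in 3 cells and Top2a 58 in 2; without members carrying at least 2 of the 3 microglia markers the log2 ratios of the wild-type pair turned from -2.27 to 0.03 and from -1.96 to 0.23. Among 15 growth factor and vascular genes, Thbs1, Timp2 and Ecm1 were higher and Hbegf lower in the wild-type pair, and 0 passed in the knockout-labelled pair. The shares of all genes were 1.47% higher and 1.81% lower, and 1.25% and 0.96%. Thrombospondin gene Thbs1 had 0, 57, 0 and 1 UMIs, 36 of the 57 in 1 cell.

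Between injured libraries, 50 genes were at least 2-fold higher in knockout-labelled members (1.12%) and 40 lower (0.893%). With median-of-ratios scaling these were 39 and 53, so the share of higher genes moved from 55.6% to 42.4%. This comparison and that between sham libraries use the same libraries as the injury comparisons. Of the 17 lesion genes 0 were higher and 8 lower, with a median of -0.88 against 0.06 over all genes. The Spp1 log2 ratio was -4.59, and -0.94 without members with a Gpnmb UMI; only 8 of the 40 lower genes still passed without those cells, and 23 of the 50 higher ones. Higher in knockout-labelled members were the chemokine genes Ccl12 (579 and 1610 CPM; 2.78-fold, 2.40 to 3.23) and Ccl24 (168 and 487 CPM; 2.90-fold, 2.20 to 3.85). A single cell held 237 of the 602 Ccl12 UMIs of the injured knockout-labelled library, and Ccl12 missed 2-fold without the top cell (log2 0.97), with cells weighted equally (0.79) and with thinned members (0.83). The interferon regulatory factor gene Irf1 was at 29.5 and 126 CPM, and the transcription factor genes Klf2 and Klf6 at 402 and 933 and at 634 and 1321. Without members with a Gpnmb UMI, Ccl24 (0.76), Klf2 (0.72) and Klf6 (0.56) missed 2-fold, while Irf1 was at 1.08.

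Transcripts of the IL-6 pathway mostly stayed within 2-fold, which does not measure how active the pathway was. IL-6 binds IL6RA, signals through the shared chain IL6ST and STAT3, and is held in check by SOCS3. Of 6 measured genes of the list, 1 was higher in knockout-labelled injured members, the LIF receptor gene Lifr at 47.7 against 128 CPM (log2 1.13, and 0.16 with thinned members). Il6ra was at 173, 102, 170 and 123 CPM, Il6st at 49.6, 34.1, 32.8 and 34.8, and Stat3 at 126, 88.6, 101 and 102. Socs3 stood at 130, 97.7, 126 and 203 CPM. Its log2 ratio between injured libraries, with 20 CPM added to both sides, was 0.92 and just short of 2-fold. In both injury comparisons 0 of the 6 passed in either direction. All 6 were below 0 in the wild-type pair, with a median of -0.39 against -0.12 over all genes. In the knockout-labelled pair 4 were above and 2 below 0. Between injured libraries all 6 were above 0, with a median of 0.25 against 0.06 over all genes.

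Between sham libraries, 18 genes were at least 2-fold higher in knockout-labelled members (0.402%) and 60 lower (1.34%). Of the 12 cytokine and inflammatory genes 4 were lower (Il1a, Il1b, Osm and Tnfaip3), and of the 14 chemokine genes 3 (Cxcl1, Cxcl2 and Cxcl10). Cxcl2, which attracts neutrophils, was at 3020 CPM in wild-type and 1302 in knockout-labelled sham members, detected in 27 of 61 and 12 of 52. Il1b and Cxcl2 were lowest in the knockout-labelled sham library, which is also the control of the knockout-labelled injury comparison. Vim, the gene of an intermediate filament, had 105 and 7 UMIs. Ttr, made in bulk by the choroid plexus, had 8 UMIs in wild-type and 48 in knockout-labelled sham members, and 0 and 52 in the injured libraries; endothelial cells had 0, 1, 20 and 12 UMIs of it in the order of the libraries above. Whether free RNA or adhering choroid plexus material brought Ttr into members was not tested.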

How the data were processed

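Counts were the authors' deposited 10x Genomics matrices of UMIs per gene and cell, for which the submitters' processing notes name Cell Ranger 6.0.1 and the build mm10 (no annotation release is named). Of 32285 identifiers, 32158 (99.6%) were placed in the GENCODE annotation of GRCm38. Members, gene lists and comparisons were chosen with earlier results of these data known.

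UMIs were summed over members of a library and scaled to 1000000 (CPM). Genes with at least 50 UMIs over all members were compared as log2 ratios with 20 CPM added, and counted at 2-fold. With 1 mouse per library no test was run, and a fit of injury across both genotype labels was not run. Intervals (Poisson for CPM, Clopper-Pearson for shares, conditional binomial for ratios) cover counting error only. A level of 0 was set to a floor of 3 counts per library for ratios. Named genes were list members and, per comparison, the 10 highest and 10 lowest ratios past 2-fold that were found in at least 5 members of the higher library; for the MHC class II split, the 10 each way by median among genes of 1 sign in 4 of 4 libraries, without the 4 split genes. Genes outside this are named as chosen after their values were seen, and some genes are not reported here.

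No doublet filter was applied to the reported values; leaving out the highest Scrublet scores was an alternative. Others varied the marker number, cell filter, scaling, weight of cells, depth, added CPM, low-count filter and MHC class II threshold. Leaving out members with Gpnmb, or the top cell of each gene, was added after seeing the data. The comparison code was tested on simulated data. Tools were Python 3.11.15, numpy 2.4.6, scipy 1.17.1, pandas 2.3.3, scanpy 1.11.5 and matplotlib 3.10.9.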

Additional observations from a re-analysis of the deposited data

Results flagged for a closer look

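For 4 genes the log2 injury ratio passed 2-fold downward in the wild-type pair and upward in the knockout-labelled pair; the difference between pairs was not tested. Skil stood at -1.15 and 1.03, a difference of 2.18, with 114, 42, 37 and 85 UMIs in wild-type sham, wild-type injured, knockout-labelled sham and knockout-labelled injured members. Rrad stood at -1.28 and 1.02, a difference of 2.31, on 30, 6, 4 and 16 UMIs. Yae1d1 stood at -1.50 and 1.08, a difference of 2.58, on 52, 11, 4 and 17 UMIs, 48 of the 52 in 1 cell. Cmah stood at -1.03 and 1.00, a difference of 2.03, on 37, 12, 11 and 30 UMIs.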

How the results depend on the processing

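No paired analysis was possible because each group is 1 library. The cause of the moves below was not tested. In this paragraph wild-type, knockout-labelled, injured and sham stand for the comparisons of injury within a label or of the labels within a treatment, and counts are genes past 2-fold. With at least 4 markers, members were 4.03% of wild-type sham, 0.968% of injured wild-type and 1.14% of injured knockout-labelled cells, with 0% MHC class II high in the last; 43 genes were higher in the wild-type pair, 30 higher in the knockout-labelled pair and 29 lower between sham libraries. With at least 2, members were 4.01% of injured wild-type cells; counts were 169 higher and 397 lower (wild-type pair), 243 and 155 (injured libraries) and 70 and 295 (split). With the stricter cell filter, injured shares were 1.21% and 1.01%, the MHC class II high share of injured knockout-labelled members 21.4%, and counts 149 lower (wild-type), 85 and 136 (knockout-labelled), 129 and 126 (injured) and 369 lower (split). Without members carrying microglia markers, knockout-labelled shares were 2.80% and 1.33%, and 72 genes were lower in that pair. Median-of-ratios scaling gave 53 lower (wild-type) and 16 higher (split), and equal weight of cells 72 lower (knockout-labelled) and 35 higher (sham). Adding 5 CPM gave 106 and 233, 118 and 110, 148 and 89, and 54 and 143 for the wild-type, knockout-labelled, injured and sham comparisons; adding 50 CPM gave 35 and 24, 24 and 12, 13 and 26, and 4 and 14, and 147 lower (split). A minimum of 20 UMIs gave 63 lower (injured) and 32 higher (sham), and of 1 UMI 125 lower (wild-type), 67 lower (knockout-labelled), 77 lower (injured) and 37 and 101 (sham). Thinning to 2000 UMIs left out 19 members and kept 1138 genes, with 35 and 27 (wild-type), 33 higher (knockout-labelled), 22 higher (injured), 24 lower (sham) and 13 and 158 (split). Leaving out each library gave 50 to 67 higher and 426 to 966 lower for the split. Without members with a Gpnmb UMI, members were 1.34% of injured wild-type cells and 41 genes were higher in the wild-type pair. The remaining 143 values of shares and counts stayed within their interval or 1.5-fold.

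Log2 ratios of named genes turned sign 28 times over the alternatives run. With at least 4 markers these were Apoc1 (-0.44, wild-type), Fabp5 (-0.018) and Lgals3 (-0.42) in the knockout-labelled pair, Cd74 (-2.33), H2-Aa (-2.27), H2-Ab1 (-3.05), H2-DMa (-0.055), H2-Eb1 (-2.16) and Ms4a4c (-0.47) between injured libraries, and Il1b (0.41) between sham libraries. With at least 2 they were Ccl8 (-0.29, wild-type), Cd74 (0.14) and Ptgs2 (-0.35, knockout-labelled). The stricter cell filter turned Cd74 (0.016) and Ifit1 (-0.33) in the knockout-labelled pair and Ifit1 (-0.73) between injured libraries, and thinning Ifit1 there (-0.029). Without microglia-marker members, Cd74 (0.16, knockout-labelled), Mki67 (0.033) and Top2a (0.23, wild-type) and Mki67 (0.28, sham) turned. Among MHC class II low members Ccr2 turned (0.12 wild-type, -0.066 injured). Without the top cell of each gene Il10 (0.31, knockout-labelled) and Yae1d1 (0.0074, sham) turned, and without members with a Gpnmb UMI Apoc1 (-0.60) and Rgs1 (-0.47) in the wild-type pair and Gngt2 (0.015) between injured libraries.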
